A study of Mus musculus with 18 samples.

Results

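The core circadian clock genes examined here were 10 of the 17672 genes in the count table, chosen by symbol: the activators Arntl (encoding BMAL1), Clock and Npas2, the period genes Per1, Per2 and Per3, the cryptochrome genes Cry1 and Cry2, the Rev-erb gene Nr1d2 and the ROR gene Rora. RNA was sequenced from an immortalised mouse brown adipocyte line differentiated in culture. All cells, controls included, carried a stable shRNA that silences endogenous Abhd5, whose protein activates the lipase ATGL. They also carried an shRNA-resistant ABHD5 tagged with mCherry under doxycycline (Dox) control in the lentiviral vector pINDUCER20. The groups without Dox were therefore labelled as knockdown, and those given Dox (1 µg/ml) as wild type, although their ABHD5 came from the transgene. Each state was treated for 3 h with the vehicle DMSO, with 10 nM isoproterenol (ISO), an agonist of β-adrenergic receptors, or with 20 µM SR-3420, a ligand of ABHD5 that activates lipolysis without the receptor. The 6 groups had 3 replicates each, giving 18 libraries. The design asks which transcriptional responses need ABHD5. Cells with intact endogenous Abhd5 and other times after treatment were not analysed here, so each level comes from a single time after treatment. The paper describes no synchronisation of these cells, so a level may average cells at different points of a daily cycle.

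The molecular clock is a feedback loop of transcription. BMAL1 pairs with CLOCK or its paralog NPAS2 and activates genes with E-boxes in their promoters, among them the Per, Cry and Rev-erb genes; PER and CRY proteins then enter the nucleus and inhibit that pair. In a linked loop, REV-ERB proteins repress and ROR proteins activate genes with a shared response element (RORE), which include Arntl, Npas2 and Cry1, and a further set of sites, the D-boxes, is bound by the activators DBP, TEF and HLF and by the repressor NFIL3. Brown adipose tissue is known for daily rhythms of heat production and lipid use, and REV-ERB is known there as a repressor of thermogenic genes.

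Promoter sequence was read because the members that changed belong to arms with different known response elements. Windows of 250 bases before to 50 bases after each start site (RefSeq, GRCm38.p6, a later build than the mm9 of the counts) were found for 9 members, with 13 start sites in all; Per2 was without an entry. They were searched on both strands for the E-box CACGTG, the RORE core TAGGTCA or TGGGTCA, the D-box TTATGNAA, the cAMP response element TGACGTCA and its half-site TGACG, which the full element also contains. The E-box was present in 7.1% of all 32817 windows of this length, the RORE core in 6.5%, the D-box in 3.4%, the full cAMP element in 1.8% and its half-site in 20.8%. The sequences that follow are the E-box, D-box and RORE matches, without half-sites. They lie in Per3, Arntl and Cry1, which passed tests of treatment described later, and in Per1, which shares the D-box with Per3 and the E-box with Cry1 and passed none. Clock, Npas2 and Cry2 also passed such tests and had no E-box, D-box or RORE match. Each sequence is 30 bases long, 5′ to 3′ on the gene's strand, with the match in capitals.
Per3, D-box with its first base 205 bases before the start: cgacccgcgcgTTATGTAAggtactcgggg
Per3, D-box 158 bases before the start: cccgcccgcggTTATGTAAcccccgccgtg
Per1, D-box 24 bases before the first start: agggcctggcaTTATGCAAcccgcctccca
Per1, E-box 166 bases before the first start: agcacccaagtcCACGTGcagggatgtgtg
Cry1, E-box 60 bases before the start: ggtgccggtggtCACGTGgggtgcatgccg
Arntl, RORE core 31 bases into the transcript of the second start: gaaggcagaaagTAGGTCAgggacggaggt

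Per3 was the member with a repeated D-box, while Per1 had both a D-box and an E-box. Half-sites of the cAMP element were present at both start sites of Per1 and in Cry1 and Cry2, and the full element matched none of the 13 windows. None of these letters was found in the windows of Clock, Npas2, Nr1d2 and Rora. A match describes the sequence of the window and does not show that a factor binds there.

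Library totals ran from 689910 to 1956565 counts, and the median gene had 8 to 25 counts per library. Which part of a gene was counted is uncertain. The methods name counting over genes, whereas the counted length given in the table matched intron length (to 10%) in 69.0% of 16566 genes and exon length in 2.5%. Among the members it matched intron length for 6 and did not for Clock, Per3, Cry2 and Rora. For Per1, 1 of the 6, the counted length of 5461 bases also matched the exon length of 5631 bases, so it does not separate the 2. The values may therefore hold unspliced RNA, spliced RNA or both. Abhd5 matched the labels: normalised counts (CPM, counts scaled to a common library size, on TMM-scaled library sizes) were 47.2 to 55.8 in DMSO without Dox and 484 to 656 in DMSO with Dox, a log2 fold change of 3.46 (SE 0.17, adjusted p = 2.44e-14). The difference between Dox states was smaller in ISO (2.48, SE 0.15, adjusted p = 3.3e-12; interaction -0.98, SE 0.23, adjusted p = 0.0194), where ISO without Dox was at 130 to 173 CPM, a response of 1.5 (SE 0.18, adjusted p = 3.34e-07). In SR-3420 it was 3.2 (SE 0.16, adjusted p = 2.11e-14). The labelled knockdown thus held different Abhd5 levels by treatment. Reads of a coding-sequence transgene fall in exons, and whether the rise with Dox lay in exons was not tested. The library SR-3420 with Dox replicate 1 stood apart, with 35.6% of its counts in 10 genes against 16.3% to 26.5% in the other 17. Of the adipocyte markers listed, 7 of 9 were in the table and all 7 had counts. Their summed level without Dox was 2770 to 3330 CPM in DMSO, 3760 to 3950 CPM in ISO and 4000 to 4200 CPM in SR-3420. With Dox it was 3250 to 3730 CPM in DMSO, 5820 to 5930 CPM in ISO and 4470 to 5780 CPM in SR-3420. This sum was thus higher than in DMSO in every treated group, SR-3420 without Dox included. Taken singly, in the tests described later, the 7 markers did not all rise in every group. With ISO and no Dox, 2 of the 7 passed as higher and 1 as lower (median log2 fold change 0.09). With SR-3420 and no Dox, 3 passed as higher and 0 as lower (median 0.49). With Dox, 7 passed as higher with ISO and 4 with SR-3420, and 0 as lower. All 7 brown adipocyte markers were in the table, of which Dio2 was at 0 in all libraries. These summed without Dox to 92.5 to 187 CPM in DMSO, 317 to 465 CPM in ISO and 137 to 238 CPM in SR-3420, and with Dox to 158 to 202, 588 to 1330 and 226 to 514 CPM. The 6 preadipocyte or fibroblast markers, with Thy1 at no more than 1 count, summed without Dox to 695 to 924 CPM in DMSO, 525 to 649 CPM in ISO and 679 to 868 CPM in SR-3420, and with Dox to 766 to 1170, 499 to 771 and 677 to 879 CPM. The 4 of 5 macrophage markers in the table summed to at most 16.9 CPM, and Ptprc, Csf1r and Lyz2 had at most 4 counts in any library. The 4 endothelial markers, with Cdh5 and Kdr at no more than 1 count, summed to 17.3 to 25.8 CPM in ISO and 5.34 to 16.2 CPM in the other groups. The part of these marker levels in the clock results was not tested. In these bulk samples, fewer cells of a type and less RNA per cell cannot be told apart.

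All 10 members passed the filter on low counts and were among the 10178 genes tested. Levels were set side by side per kilobase of counted length, as medians over the 18 libraries, and their order depends on that length. Cry2 (10.4 CPM per kb) and Per3 (9.11 CPM per kb) were highest, followed by Clock (6.48 CPM per kb), Nr1d2 (6.29 CPM per kb) and Per1 (3.35 CPM per kb). Per2 (0.604 CPM per kb), Arntl (0.564 CPM per kb) and Cry1 (0.474 CPM per kb) were lower, and Npas2 (0.074 CPM per kb) and Rora (0.0125 CPM per kb) lower still. Per kilobase of annotated exon, a choice made after seeing the data, Clock (54.6 CPM per kb), Nr1d2 (37.7 CPM per kb), Per3 (19.9 CPM per kb) and Arntl (18.9 CPM per kb) came first, and Cry2 (5.03 CPM per kb) was sixth of 10. Npas2 and Rora came last with either length. The level of Cry2 rests on 3071 counted bases, 10.1% of its gene span, and it overlaps an annotated non-coding gene on the other strand. Npas2 and Rora also overlap annotated non-coding genes, and no strand setting of the counting is given, so these 3 levels are uncertain. Counts per library ran from 3 to 18 for Rora and from 5 to 22 for Npas2, against 360 to 853 for Clock, so that modest changes of the sparsest members could not be resolved.

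**Figure D1:**
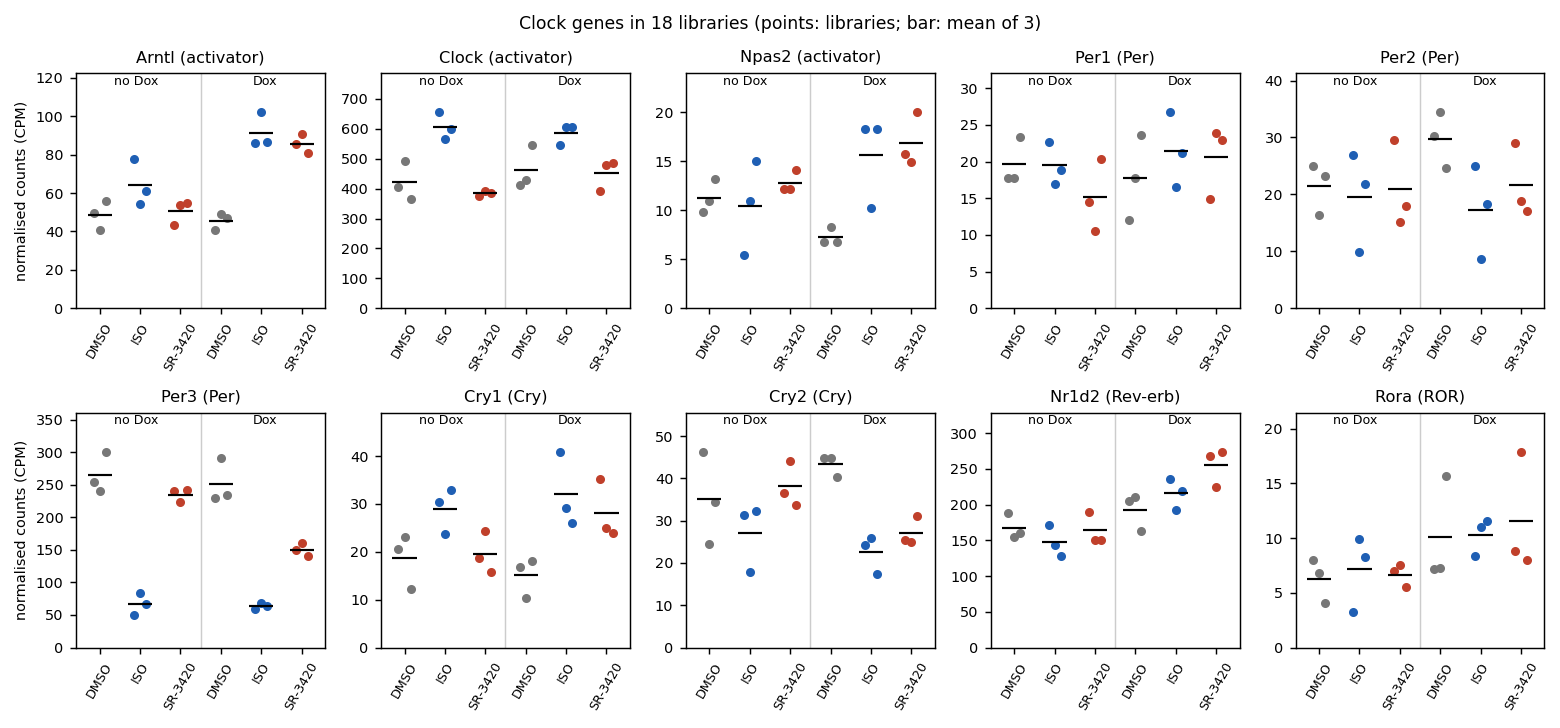
Normalised counts (CPM, linear axis from 0) of the 10 clock genes in the 18 libraries, with a point per library and a bar at the mean of the 3 replicates; grey is DMSO, blue ISO and red SR-3420. Per3 fell in all ISO groups and Arntl was highest in the ISO and SR-3420 groups with Dox, whereas the points of Per1 overlap in every comparison.

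The members differed in how much of their variance in log2 CPM lay between the 6 groups. The share was 96.8% for Per3, 87.6% for Arntl, 78.2% for Clock and 76.8% for Nr1d2. It was 61.4% to 65.1% for Npas2, Cry2 and Cry1, and 25.3% to 35.3% for Per1, Per2 and Rora. These shares describe the 18 libraries and were not tested.

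With ISO and Dox, 5 of the 10 members passed (adjusted p of 0.05 or less, edgeR quasi-likelihood test over all genes tested), against a background of 32.5% of genes. Arntl, Npas2 and Cry1 were higher, where 16.4% of genes were higher, and Per3 and Cry2 were lower, where 16.1% were lower. With ISO and no Dox, 2 passed against 28% of genes: Clock was higher (14.5% of genes) and Per3 lower (13.5% of genes). With SR-3420 and Dox, 4 passed against 9.9% of genes: Arntl, Npas2 and Cry1 were higher (6.53% of genes) and Per3 lower (3.37% of genes). With SR-3420 and no Dox, none passed in edgeR, DESeq2 or limma-voom, against 0.766% of genes in edgeR, and 0 of 10 members had an unadjusted p under 0.05, where 8.77% of genes had. The median log2 fold change of the 10 members was 0.25 with ISO and Dox, where that of all genes was -0.02, and 0.29 with SR-3420 and Dox, where that of all genes was -0.01. The median was -0.04 with ISO and no Dox (all genes -0.01) and 0 with SR-3420 and no Dox (all genes 0). With library totals as the only scaling, the share of higher genes among all called went from 50.4% to 34.7% for ISO with Dox, from 51.7% to 30.2% for ISO without Dox and from 66% to 31.5% for SR-3420 with Dox, and no call of a member reversed. Within a Dox state the ISO and SR-3420 comparisons share their DMSO libraries, so their values are given side by side and not as separate evidence.

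**Figure D2:**
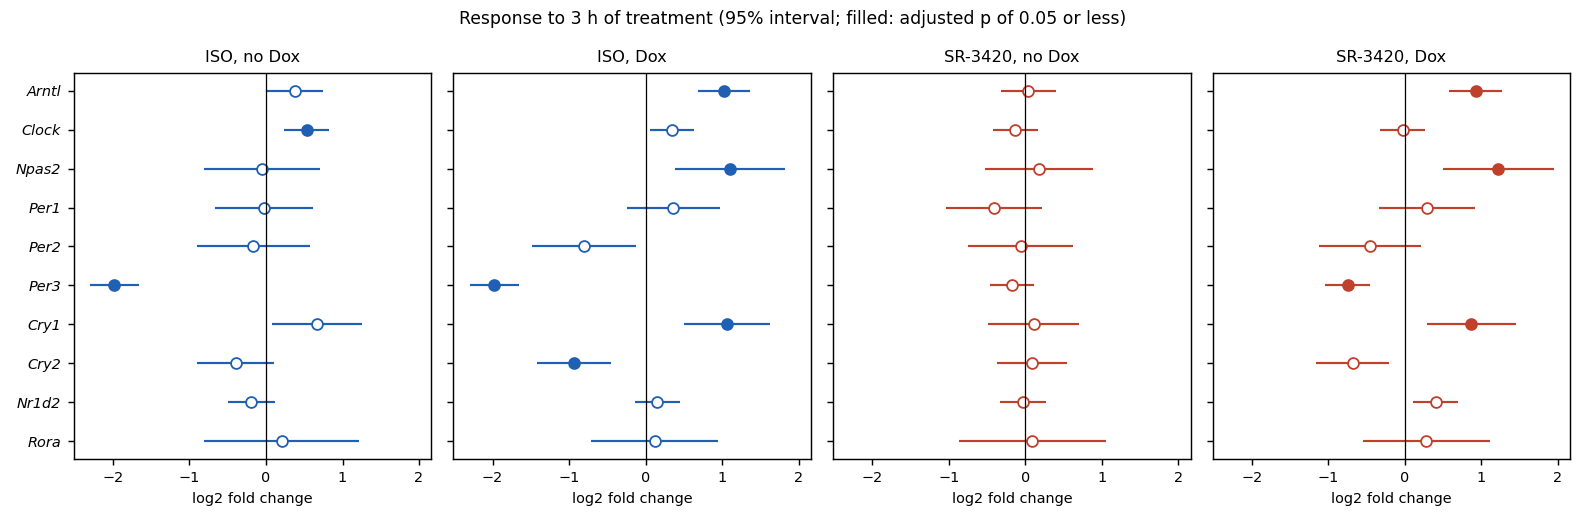
Log2 fold change against DMSO of each member (point) with its 95% interval (line), for ISO and SR-3420 without and with Dox; filled points passed an adjusted p of 0.05. Per3 lies near -1.98 under ISO in both Dox states, and no member is filled under SR-3420 without Dox.

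Arntl (chromosome 7, 120350979 to 120457640 on mm9, plus strand), the obligate partner of CLOCK and NPAS2, rose with both treatments when Dox was given. Without Dox its CPM was 49.8, 40.8 and 55.8 in DMSO, 77.8, 54.5 and 60.8 in ISO, and 43.5, 54 and 54.9 in SR-3420. With Dox it was 40.9, 48.9 and 47.2 in DMSO, 85.9, 102 and 86.6 in ISO, and 85.3, 90.5 and 80.9 in SR-3420. With Dox every ISO and SR-3420 library was above every DMSO library, and without Dox the groups overlapped. The log2 fold change with Dox was 1.02 (SE 0.16, adjusted p = 1.72e-05) for ISO and 0.93 (SE 0.17, adjusted p = 0.000329) for SR-3420. Without Dox it was 0.38 (SE 0.18, adjusted p = 0.114) for ISO and 0.04 (SE 0.17, adjusted p = 0.988) for SR-3420. Both calls with Dox were kept in all 15 alternative fits at the same threshold (other scalings, filters, models and left-out libraries), and a log2 fold limit of 1 removed that of SR-3420. Without SR-3420 with Dox replicate 1, the SR-3420 value was 0.93 (adjusted p = 0.00199).

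Npas2 (chromosome 1, 39251117 to 39420085, plus strand), which can replace CLOCK, was among the sparsest members. Its CPM without Dox was 9.79, 10.9 and 13.2 in DMSO, 5.4, 10.9 and 15 in ISO, and 12.2, 12.2 and 14.1 in SR-3420. Cells with Dox had 6.74, 8.33 and 6.74 in DMSO, 18.3, 10.2 and 18.3 in ISO, and 15.8, 14.9 and 20 in SR-3420. With Dox, both treated groups lay above DMSO with no overlap, and the DMSO libraries lay below those without Dox, a difference that did not pass (log2 fold change -0.64, adjusted p = 0.611). The log2 fold change with Dox was 1.1 (SE 0.35, adjusted p = 0.0177) for ISO and 1.22 (SE 0.35, adjusted p = 0.0238) for SR-3420. The ISO call was lost without DMSO with Dox replicate 1 or without ISO with Dox replicate 1 or 3 (0.96 to 1.02, adjusted p up to 0.0811). The SR-3420 call was lost without DMSO with Dox replicate 1 or 3 or SR-3420 with Dox replicate 1 or 3 (1.09 to 1.27, adjusted p up to 0.114), and also in DESeq2 (adjusted p = 0.0586). With library totals as the only scaling it was lost as well (adjusted p = 0.0739).

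Clock (chromosome 5, 76638893 to 76733817, minus strand) encodes the DNA-binding partner of BMAL1 and rose with ISO in cells without Dox. There its CPM was 406, 492 and 365 in DMSO, 655, 567 and 601 in ISO, and 374, 393 and 385 in SR-3420. In cells with Dox it was 411, 429 and 547 in DMSO, 546, 606 and 605 in ISO, and 392, 479 and 485 in SR-3420. Without Dox all ISO libraries were above all DMSO libraries, and with Dox the highest DMSO library reached the lowest ISO library. The ISO response was 0.53 on the log2 scale without Dox (SE 0.14, adjusted p = 0.00545) and 0.35 with Dox (SE 0.14, adjusted p = 0.0569), and the difference between them was -0.19 (95% interval -0.59 to 0.22). The value with Dox passed without DMSO with Dox replicate 3 (0.50, adjusted p = 0.0146), in DESeq2 (adjusted p = 0.0329) and in limma-voom (adjusted p = 0.0308). The call without Dox was lost when library totals were the only scaling (0.37, adjusted p = 0.113). SR-3420 gave -0.13 without Dox (95% interval -0.42 to 0.16) and -0.03 with Dox (95% interval -0.32 to 0.26).

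Per3 (chromosome 4, 150377764 to 150418774, minus strand), a PER protein gene outside the set known to be needed for rhythm, was the member with the largest response. Its CPM without Dox was 254, 241 and 301 in DMSO, 49.7, 83.3 and 67.6 in ISO, and 240, 223 and 242 in SR-3420. With Dox it was 230, 291 and 235 in DMSO, 59.2, 68.5 and 63.5 in ISO, and 150, 160 and 140 in SR-3420. ISO libraries were the lowest in both Dox states, and SR-3420 libraries lay between ISO and DMSO only with Dox, with no overlap on either side. The ISO response of Per3 was -1.98 on the log2 scale in each state (SE 0.16 in each; adjusted p = 1.04e-10 without and 5.51e-11 with Dox), to 0.253 and 0.254 of the DMSO level. SR-3420 gave -0.18 without Dox (SE 0.14, adjusted p = 0.798) and -0.74 with Dox (SE 0.14, adjusted p = 0.000703), or 0.597 of the DMSO level. All 3 calls were kept in the 15 alternative fits run for each at the same threshold, and a log2 fold limit of 1 removed that of SR-3420. Without SR-3420 with Dox replicate 1, the SR-3420 response was -0.74 (adjusted p = 0.00481).

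Per1 (chromosome 11, 68912458 to 68923459, plus strand) and Per2 (chromosome 1, 93312559 to 93355905, minus strand), the period genes whose proteins carry most of the feedback, passed no test. Per1, known as an immediate target of cAMP signalling, was at 17.8, 17.7 and 23.3 CPM in DMSO and 22.7, 16.9 and 18.8 in ISO without Dox. In the cells with Dox it was 12, 17.7 and 23.6 in DMSO, 26.7, 16.5 and 21.2 in ISO, and 14.9, 23.9 and 23 in SR-3420; in SR-3420 without Dox it was 14.5, 10.5 and 20.4. The groups overlapped in every comparison, with 13 to 32 counts per library. The ISO response of Per1 was -0.02 without Dox (95% interval -0.66 to 0.61) and 0.36 with Dox (95% interval -0.25 to 0.97), so changes up to these bounds at 3 h were not resolved.

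Per2 without Dox was at 24.9, 16.3 and 23.3 CPM in DMSO, 27, 9.91 and 21.8 in ISO, and 29.6, 15.1 and 18 in SR-3420. With Dox it was at 30.3, 34.4 and 24.7 CPM in DMSO, 25, 8.66 and 18.3 in ISO, and 29, 18.9 and 17 in SR-3420. The ISO libraries were spread widely in both Dox states, and all treated groups overlapped DMSO. With Dox the log2 fold change was -0.80 for ISO (SE 0.33, adjusted p = 0.0646) and -0.45 for SR-3420 (SE 0.32, adjusted p = 0.443). The ISO value passed in 7 of 15 alternative fits, including the fit without ISO with Dox replicate 1 (-1.19, adjusted p = 0.0223).

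The cryptochromes, the repressors of the CLOCK and BMAL1 pair, moved in opposite directions with ISO and Dox. Cry1 (chromosome 10, 84594445 to 84647799, minus strand) without Dox was at 20.5, 23.1 and 12.2 CPM in DMSO, 30.3, 23.8 and 33 in ISO, and 18.6, 24.4 and 15.7 in SR-3420. With Dox it was at 16.8, 10.4 and 18 CPM in DMSO, 40.9, 29.1 and 26 in ISO, and 35.2, 24.9 and 24 in SR-3420. The ISO libraries were above those of DMSO in both Dox states and the SR-3420 libraries with Dox only. The ISO response was 1.06 with Dox (SE 0.27, adjusted p = 0.00369), kept in all 15 alternative fits and with a log2 fold limit of 1, and 0.67 without Dox (SE 0.29, adjusted p = 0.0834). The SR-3420 response with Dox was 0.87 (SE 0.28, adjusted p = 0.0485) and was lost in 11 of 15 alternative fits, among them all 6 that left out a library of either group. Those 6 gave 0.66 to 1.00, with the largest adjusted p (0.261) without SR-3420 with Dox replicate 1.

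Cry2 (chromosome 2, 92243804 to 92274226, minus strand) without Dox was at 46.3, 24.5 and 34.5 CPM in DMSO, 31.3, 17.8 and 32.3 in ISO, and 36.6, 44.1 and 33.7 in SR-3420. Given Dox, it was at 44.8, 44.8 and 40.4 CPM in DMSO, 24.2, 26 and 17.3 in ISO, and 25.5, 24.9 and 31 in SR-3420. With Dox both treated groups lay below DMSO without overlap, and without Dox they overlapped it. The ISO response with Dox was -0.94 (SE 0.24, adjusted p = 0.00298), kept in all 15 alternative fits and lost with a log2 fold limit of 1. The SR-3420 response with Dox was -0.68 (SE 0.23, adjusted p = 0.0611), which passed in 5 of 15 alternative fits, and the ISO response without Dox was -0.39 (SE 0.25, adjusted p = 0.248).

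Nr1d2 (chromosome 14, 19036570 to 19071620, minus strand) encodes REV-ERBβ, a haem-binding repressor of RORE genes. Without Dox its CPM was 188, 154 and 160 in DMSO, 172, 143 and 128 in ISO, and 190, 151 and 151 in SR-3420. With Dox it was 205, 211 and 163 in DMSO, 236, 192 and 219 in ISO, and 268, 225 and 274 in SR-3420. All ISO libraries with Dox were above those without, as were all SR-3420 libraries, whereas in DMSO the Dox states overlapped. Its responses to treatment did not pass in the main fit. With Dox they were 0.15 for ISO (SE 0.14, adjusted p = 0.443) and 0.40 for SR-3420 (SE 0.14, adjusted p = 0.0779), the latter with no overlap between groups. With a block for replicate number in edgeR, the SR-3420 response with Dox passed (0.41, adjusted p = 0.00754). The paralog of Nr1d2, Nr1d1, which encodes REV-ERBα, had at most 13 counts in any library and was not tested.

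Rora (chromosome 9, 68501593 to 69236053, plus strand), which encodes an activator at the same elements, ran from 3.24 to 17.9 CPM over the 18 libraries. In DMSO its CPM was 8.01, 6.8 and 4.06 without Dox and 7.22, 7.29 and 15.7 with Dox. The groups overlapped in every treatment comparison, and the 4 treatment responses lay between 0.09 and 0.28 on the log2 scale with standard errors of 0.40 to 0.49. The interval for ISO with Dox was -0.71 to 0.95.

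In DMSO, Dox alone gave no call among the members: 0 of 10 passed in edgeR, DESeq2 and limma-voom, 0 had an unadjusted p under 0.05 (9.83% of genes had), and 1.18% of all genes passed in edgeR. In ISO-treated cells, 2 of 10 were higher with Dox than without, Arntl (0.52, SE 0.16, adjusted p = 0.0297) and Nr1d2 (0.55, SE 0.15, adjusted p = 0.0111), against 12.7% of all genes called in either direction. Arntl was lost without ISO no-Dox replicate 2 or 3 or ISO with Dox replicate 2 (0.43 to 0.47, adjusted p 0.103 to 0.121). Nr1d2 was lost without ISO no-Dox replicate 3 (0.45, adjusted p = 0.0894) or ISO with Dox replicate 1 (0.48, adjusted p = 0.0611). It was also lost with library totals as the only scaling (0.50, adjusted p = 0.0645). In SR-3420-treated cells, 3 of 10 differed with Dox against 11.5% of genes: Arntl was higher by 0.76 (SE 0.16, adjusted p = 0.00172), Nr1d2 was higher by 0.64 (SE 0.14, adjusted p = 0.00313) and Per3 fell by 0.65 (SE 0.14, adjusted p = 0.00262). No left-out library ended these 3 calls, but with library totals as the only scaling those of Arntl (0.53, adjusted p = 0.0521) and Nr1d2 (0.41, adjusted p = 0.0961) were lost.

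Whether a response to treatment differed between the Dox states was tested as an interaction, the log2 response with Dox minus that without. None of the 10 members passed for ISO in edgeR, DESeq2 or limma-voom, where 2.18% of genes passed in edgeR; 2 members had an unadjusted p under 0.05, against 14.1% of all genes. None passed for SR-3420 in the same 3 tools, where 0.757% of genes passed in edgeR. With a block for replicate number in edgeR, Arntl (0.90, adjusted p = 0.0225) and Per3 (-0.56, adjusted p = 0.0436) passed for SR-3420. In the fit without that block, 5 members had an unadjusted p under 0.05, against 12.1% of all genes. The 5 members with an unadjusted p under 0.05 for SR-3420 differed by 0.89 for Arntl (95% interval 0.39 to 1.38, adjusted p = 0.0773), 1.05 for Npas2 (95% interval 0.03 to 2.06, adjusted p = 0.4), -0.78 for Cry2 (95% interval -1.44 to -0.11, adjusted p = 0.316), -0.57 for Per3 (95% interval -0.97 to -0.16, adjusted p = 0.204) and 0.43 for Nr1d2 (95% interval 0.01 to 0.85, adjusted p = 0.403). Cry1 (0.76, 95% interval -0.08 to 1.6) and Per1 (0.7, 95% interval -0.19 to 1.59) had intervals that included 0. For ISO the 2 members were Arntl, with a difference of 0.65 (95% interval 0.15 to 1.14, adjusted p = 0.178), and Npas2, with 1.15 (95% interval 0.1 to 2.2, adjusted p = 0.287). The ISO response of Per3 differed by 0.01 between the states, with a 95% interval of -0.45 to 0.47.

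**Figure D3:**
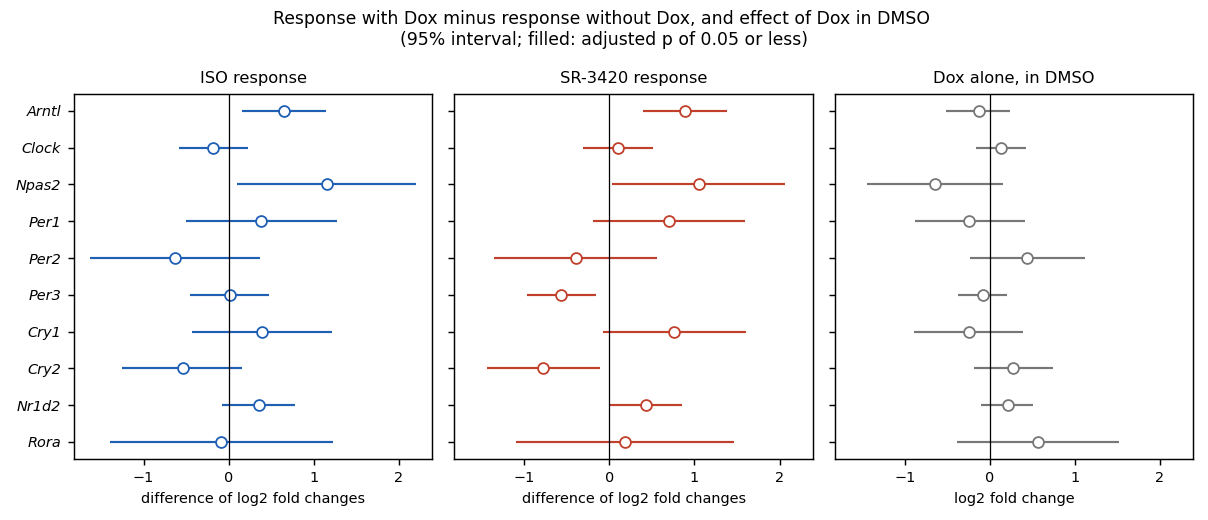
Difference between the response with and without Dox for ISO and for SR-3420, and the effect of Dox in DMSO, as log2 values with 95% intervals; open points did not pass an adjusted p of 0.05. All points are open in this fit, which has no block for replicate number. The ISO difference of Per3 lies at 0.01, and the SR-3420 difference of Arntl lies at 0.89.

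ISO and SR-3420 differ as agents, a receptor agonist and a ligand of ABHD5, and were given at different doses, so their responses are set side by side. With Dox, 1 of 10 members differed between them, against 19.8% of genes: Per3 was lower with ISO, with a log2 difference of -1.23 (SE 0.16, adjusted p = 1.56e-06). Clock was 0.37 higher with ISO (SE 0.14, adjusted p = 0.0573), with all ISO libraries above all SR-3420 libraries. It passed in DESeq2 (adjusted p = 0.0348) and limma-voom (adjusted p = 0.0358). Arntl differed by 0.10 (95% interval -0.22 to 0.41), Npas2 by -0.12 (95% interval -0.77 to 0.52) and Cry1 by 0.19 (95% interval -0.34 to 0.71).

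The order of the 6 groups was clear for few members. For Per3, DMSO without Dox (265 ± 31.9 CPM, SD, n = 3), DMSO with Dox (252 ± 34.1) and SR-3420 without Dox (235 ± 10.7) overlapped as neighbours. SR-3420 with Dox (150 ± 10.1) was below these with a gap on both sides. ISO without Dox (66.8 ± 16.8) and ISO with Dox (63.7 ± 4.67) overlapped each other at the bottom. For Arntl, ISO with Dox (91.4 ± 8.87) and SR-3420 with Dox (85.5 ± 4.8) overlapped and stood apart from the next group, ISO without Dox (64.4 ± 12), below which neighbours overlapped down to DMSO with Dox (45.7 ± 4.21).

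Of 40 other genes of the clock pathway (paralogs and the auxiliary loop, D-box and E-box outputs, kinases and ubiquitin ligases, co-regulators), 38 were in the table and 34 were tested. With ISO and no Dox, 8 were higher and 5 lower, where 28% of all genes passed, and with ISO and Dox 7 were higher and 4 lower, where 32.5% passed. With SR-3420 and no Dox none passed, and with SR-3420 and Dox 2 were higher and none lower, where 9.9% of all genes passed. The median log2 fold change over the 34 lay between -0.04 and 0.07 in these 4 comparisons. Nfil3, the D-box repressor, rose by 2.74 (SE 0.17, adjusted p = 3.9e-13) with ISO without Dox and by 2.07 (SE 0.17, adjusted p = 1.21e-10) with Dox. The PER kinase gene Csnk1a1 rose by 1.03 (SE 0.14, adjusted p = 1.7e-06) without and 0.99 (SE 0.13, adjusted p = 1.36e-06) with Dox. Usp2, a deubiquitinase, rose with ISO by 1.97 without Dox (SE 0.27, adjusted p = 2e-06) and 1.58 with Dox (SE 0.25, adjusted p = 1.67e-05). Rorb, the paralog of Rora, rose with ISO by 1.73 without Dox (SE 0.58, adjusted p = 0.0255) and 3.83 with Dox (SE 0.58, adjusted p = 6.61e-06). With SR-3420 and Dox the 2 genes were the co-repressor gene Ncor1 (0.44, SE 0.13, adjusted p = 0.0224) and the co-activator gene Crebbp (0.48, SE 0.14, adjusted p = 0.0313). The D-box activator gene Tef, chosen after its values were seen, fell with ISO by 0.94 without (SE 0.14, adjusted p = 1.04e-05) and by 0.91 with Dox (SE 0.14, adjusted p = 9.57e-06). Dbp, another D-box activator gene, did not pass with ISO, at -0.67 without (SE 0.41, adjusted p = 0.241) and -0.18 with Dox (SE 0.36, adjusted p = 0.748).

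**Figure D4:**
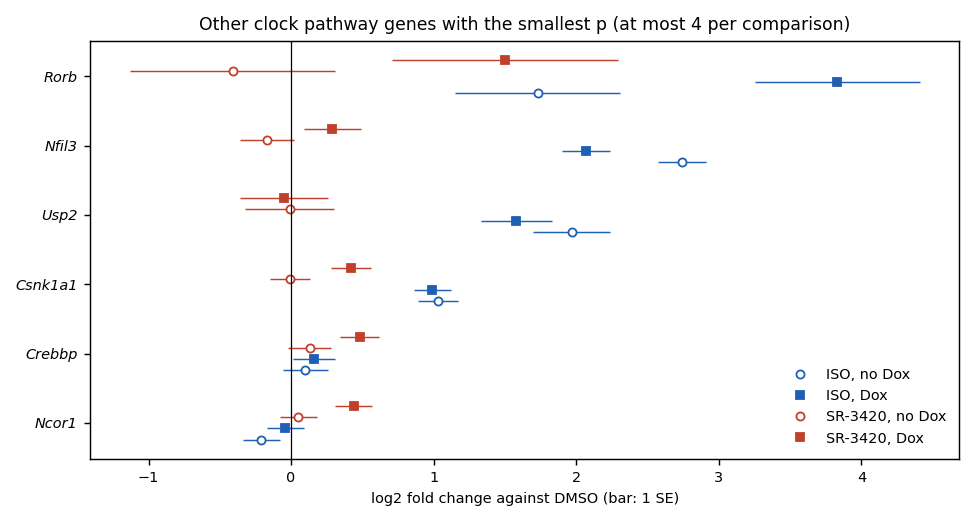
Log2 fold change against DMSO (points, with bars of 1 SE) of the other clock pathway genes with the smallest p, at most 4 per comparison; blue is ISO, red SR-3420, open circles without and filled squares with Dox. Nfil3 lies at 2.74 and 2.07 under ISO, while its SR-3420 values are -0.17 and 0.29.

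With Dox in DMSO, none of the 34 tested pathway genes passed. In ISO-treated cells 1 was higher and 3 lower with Dox, where 12.7% of all genes passed, and in SR-3420-treated cells 5 were higher and none lower, where 11.5% passed. For the SR-3420 interaction none of the 34 passed in edgeR.

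In each arm the member with the highest mean log2 CPM was taken, without regard to gene length. Genes whose log2 CPM followed it most closely over the 18 libraries were named, as a description of libraries that share treatments and depth. For Per3 they were Ctps2 (r = 0.97), Mettl8 (r = 0.97) and Arhgef40 (r = 0.96). For Clock they were Mapkapk2 (r = 0.91), Xdh (r = 0.9) and Tbl3 (r = 0.9), and for Nr1d2 they were Dhrs9 (r = 0.86), Bri3 (r = 0.84) and Saraf (r = 0.84). For Cry2 they were Xpc (r = 0.83), 9030025P20Rik (r = 0.81) and Slc9a3r2 (r = 0.81). For Rora, at few counts, they were Znhit1 (r = 0.85), Plod1 (r = 0.79) and Nedd9 (r = 0.75).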

How the data were processed

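RNA of 18 libraries was compared. As the paper and the processing notes describe, alignment to mm9 used STAR 2.4.2a, HOMER limited each position to 1 read per length, and iRNA-seq did the counting. The authors deposited raw whole-number counts. A strand setting is not given in the sources used here. Replicates are described as independent experiments. Every library column was matched to a sample by its title.

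Counts were filtered with filterByExpr over the 6 groups (10178 genes tested, 7494 not), scaled by TMM factors (0.768 to 1.13) and fitted in edgeR 4.0.16 (R 4.3.3) with 1 mean per group, by the quasi-likelihood test, two-sided. Adjusted p-values are Benjamini-Hochberg over all genes tested, in each of 10 comparisons; a gene passed at 0.05, with no fold limit. Standard errors derive from the F statistic. The biological coefficient of variation was 0.133. The method was tested on simulated counts. CPM use the TMM-scaled totals. Library totals limit precision, and p-values measure the spread between these libraries. Gene positions are those of the table on mm9; exon lengths come from GENCODE M1.

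The members and gene lists were chosen with earlier results of these data known. All 10 members were described; other pathway genes were named as the 4 with the smallest p per treatment comparison, exceptions are marked, and some of these genes are not reported here. Alternatives were other scalings and filters, limma-voom (limma 3.58.1), DESeq2 1.42.0, only the groups compared, a replicate block, an adjusted p of 0.01, a log2 fold limit of 1 and fits without each library.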

Additional observations from a re-analysis of the deposited data

How the results depend on the processing

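Over 1587 alternative values of the members, 1531 kept their side of the threshold, 33 lost it, 23 passed only under the alternative and 0 called values reversed. Most of these values belonged to tests that did not pass in the main fit, so the total says little about the calls. Only a called value could lose the threshold, and Cry1 with SR-3420 and Dox did so in 11 of 15 fits. With a log2 fold limit of 1, the members passing went from 2 to 1 (ISO without Dox), 4 to 1 (SR-3420 with Dox), 2 to 0 (Dox in ISO) and 3 to 0 (Dox in SR-3420). At an adjusted p of 0.01 they went from 4 to 2 (SR-3420 with Dox) and 2 to 0 (Dox in ISO). With library totals only they were 1 (ISO without Dox), 0 (Dox in ISO) and 1 (Dox in SR-3420). Dox in ISO gave 1 with upper-quartile factors, with only its groups and in DESeq2. DESeq2 gave 2 for SR-3420 with Dox. ISO against SR-3420 with Dox gave 2 in DESeq2, limma-voom and the replicate block. Leaving out each library in turn gave 2 to 3 members for SR-3420 with Dox and 0 to 2 for Dox in ISO. For these counts the cause was not tested, except that a stricter limit can only remove calls. Library totals only shifted the median of all genes by -0.17 (ISO without Dox), -0.14 (ISO with Dox), -0.19 (SR-3420 with Dox) and -0.23 (Dox in SR-3420), and took the share of higher calls for Dox in SR-3420 from 62.9% to 22.5%. Upper-quartile factors gave 37.1% (ISO with Dox), 52.8% (SR-3420 with Dox), 49.6% (Dox in ISO, from 62.1%) and 50.1% (Dox in SR-3420). For the interactions the shares went from 73.9% to 60% and 84.6% (ISO) and from 71.4% to 53% and 38.1% (SR-3420), with upper-quartile factors and library totals.

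Replicate numbers are shared by the groups. Of 45 same-numbered pairs, 36 deviated together with r over 0.1 (lowest 0.04, median 0.15), so the numbers did not meet the rule for pairing, although 18 of 18 libraries were closest to their own number. With a replicate block the genes passing were 238 of all tested (from 78) for SR-3420 without Dox, 1568 (from 1008) for SR-3420 with Dox, 271 (from 120) for Dox in DMSO, 1834 (from 1175) for Dox in SR-3420, 600 (from 222) for the ISO interaction and 339 (from 77) for the SR-3420 interaction. Among members, 2 then passed for the SR-3420 interaction, Arntl (0.90, adjusted p = 0.0225) and Per3 (-0.56, adjusted p = 0.0436), from 0 without the block. The block also gave 6 members for SR-3420 with Dox (from 4, adding Cry2, adjusted p = 0.034, and Nr1d2, 0.41, adjusted p = 0.00754), 7 for ISO with Dox (from 5, adding Clock, adjusted p = 0.0146, and Per2, adjusted p = 0.0222) and 3 for ISO without Dox (from 2, adding Cry1, adjusted p = 0.0424). Over all genes, a log2 fold limit of 1 left 1108, 1334, 27 and 316 genes in the treatment comparisons (ISO, then SR-3420, each without then with Dox, from 2846, 3309, 78 and 1008), 477 and 346 for Dox in ISO and SR-3420 (from 1297 and 1175), 697 for ISO against SR-3420 (from 2016) and 133 for the ISO interaction. An adjusted p of 0.01 left 1670, 2104, 29 and 520, then 713 and 575, 1121, and 79 and 9 for the interactions. With no filter on low counts the counts were 157 (SR-3420 without Dox), 191 (Dox in DMSO), 358 and 156 (interactions); with at least 10 counts per library, 62 (Dox in DMSO); with library totals only, 36 (SR-3420 without Dox), 130 and 42 (interactions). Depth limits Npas2 and Rora most, at 3 to 22 counts per library.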
